A study of Mus musculus with 18 samples.

Results

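The matrix metalloproteinase (MMP) cluster on mouse chromosome 9 was followed in 168FARN and 67NR, a pair of mouse mammary tumour cell lines, each studied as WT cells and after loss of *Kmt2c* or *Kmt2d*. Its members were the rows of both count tables with the symbols MMP1A, MMP1B, MMP3, MMP7, MMP8, MMP10, MMP12, MMP13, MMP20 and MMP27, which gave 10 genes of the 24333 symbols found in both tables. RNA-seq of 18 libraries covered 6 groups, with 3 replicates of each genotype in each line. The KO derivatives were made with CRISPR/Cas9 and, per the study's methods, were sorted pools and not clones. Each pool had received 3 guides against the first exon together with a Cas9–GFP plasmid. The 168FARN WT cells carried a control guide, and the 67NR controls are named WT only. All cells were grown in culture in DMEM with serum, so no host tissue was present. Per the study's reporting summary, replicates of a cell line were collected a passage apart, and its methods treat each collection time as a batch. P-values therefore measure the spread between passages of the same lines and pools.

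MMPs are secreted or membrane-bound zinc endopeptidases that are made as inactive proenzymes and cut collagens, proteoglycans, growth factors and other proteinases outside the cell. The chromosome 9 genes arose by tandem duplication and encode collagenases (*Mmp1a*, *Mmp1b*, *Mmp8*, *Mmp13*), stromelysins (*Mmp3*, *Mmp10*), matrilysin (*Mmp7*), macrophage elastase (*Mmp12*), enamelysin (*Mmp20*) and *Mmp27*. Many of them have an AP-1 site close to the transcription start, through which Fos and Jun proteins are known to act. KMT2C and KMT2D are methyltransferases that place H3K4me1 at enhancers.

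In mm9 the 10 genes span 427.072 kb, from the start of *Mmp13* at chr9:7272514 to the end of *Mmp7* at chr9:7699585. Their order is *Mmp13*, *Mmp12*, *Mmp1b*, *Mmp3*, *Mmp1a*, *Mmp10*, *Mmp8*, *Mmp27*, *Mmp20* and *Mmp7*, and *Mmp1b* is the only gene of the 10 on the minus strand. The annotated ends of *Mmp12* and *Mmp1b* overlap by 1261 bp on opposite strands, and since no source used here states the strand setting of the counting, reads in this stretch cannot be assigned with certainty. *Mmp1a* and *Mmp1b* share 90.6% of their aligned coding bases, and *Mmp3* and *Mmp10* share 79.8%. Exact stretches of 75 bp that *Mmp1b* shares with *Mmp1a* make up 6.40% of its windows, and those that *Mmp3* shares with *Mmp10* make up 3.77%. Counts within each of these pairs may be uncertain. The extent was not measured, and the study's paired reads were longer than 75 bp.

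The 120 bases before the annotated start are given for the 6 members that could be tested in 67NR, because members that moved in opposite directions are set side by side here. The sequences are those of RefSeq for GRCm38.p6, and each window matched mm9 chromosome 9 exactly once, at the mm9 positions given. Capitals mark the AP-1 heptamer, TGAGTCA or its reverse complement TGACTCA, so that both strands were searched. *Mmp12* and *Mmp7* have a pair of annotated starts each, and for *Mmp12* the downstream one, whose window holds the heptamer, is given.
Mmp13 (chr9:7272394-7272513, plus strand): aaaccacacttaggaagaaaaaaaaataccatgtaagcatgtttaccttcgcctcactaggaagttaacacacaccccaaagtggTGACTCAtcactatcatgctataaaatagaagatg
Mmp12 (chr9:7347254-7347373, plus strand): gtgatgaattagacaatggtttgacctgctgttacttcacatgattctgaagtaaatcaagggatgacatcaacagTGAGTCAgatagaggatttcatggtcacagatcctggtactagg
Mmp1b (chr9:7388027-7388146, minus strand): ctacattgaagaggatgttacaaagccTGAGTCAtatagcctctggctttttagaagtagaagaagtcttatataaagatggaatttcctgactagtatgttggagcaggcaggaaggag
Mmp3 (chr9:7445702-7445821, plus strand): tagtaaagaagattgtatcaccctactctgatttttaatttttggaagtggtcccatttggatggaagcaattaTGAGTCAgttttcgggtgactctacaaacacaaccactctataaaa
Mmp10 (chr9:7502222-7502341, plus strand): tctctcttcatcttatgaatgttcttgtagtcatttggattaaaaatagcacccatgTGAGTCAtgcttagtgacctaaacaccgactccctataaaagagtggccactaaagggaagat
Mmp20 (chr9:7628111-7628230, plus strand): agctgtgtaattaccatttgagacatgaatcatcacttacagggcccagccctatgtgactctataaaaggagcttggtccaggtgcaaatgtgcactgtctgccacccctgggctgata
The 10 members have 12 windows from 250 bases before to 50 bases after a start, and the heptamer was found in 7 of them, each of a different member. Of all 32851 RefSeq promoter windows 1709 (5.20%) held it. The upstream window of *Mmp12* and the downstream window of *Mmp7* did not. Its first base lay 35 bases before the start in *Mmp13*, 44 in *Mmp12*, 93 in *Mmp1b*, 46 in *Mmp3*, 73 in *Mmp1a*, 63 in *Mmp10* and 63 in *Mmp7*. The windows of *Mmp8*, *Mmp20* and *Mmp27* held no such letters. *Mmp13*, which fell in 67NR, and *Mmp3*, *Mmp10* and *Mmp1b*, which rose, had these letters in their windows. *Mmp12*, which also fell, had them only at its downstream start, and which start these cells use was not examined. *Mmp20* rose without them, and *Mmp7*, with them in its upstream window, had no counts.

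The libraries held between 14359760 and 43427382 counts in 168FARN and between 40951775 and 79251530 in 67NR. Replicate 3 stood apart from replicates 1 and 2 in every group of both lines, and member results that rest on it are given with and without it. The rRNA precursor *Rn45s* took 0.458 to 4.96% of the counts in 168FARN and 0.495 to 2.45% in 8 libraries of 67NR, and 28.7% in the *Kmt2d* KO replicate 3 of that line. Fits without *Rn45s* changed no call of a member. Among counts from 3 to 19, 88.4 to 95.2% were even in the 67NR libraries against 43.2 to 46.5% in 168FARN, so low 67NR counts hold fewer independent fragments than their number. *Kmt2c* transcripts averaged 90.0 ± 5.20 CPM (counts scaled to effective library size, SD, n = 3) in 67NR *Kmt2c* KO cells and 58.2 ± 4.39 in WT. *Kmt2d* transcripts averaged 113 ± 29.6 CPM in 67NR *Kmt2d* KO cells and 97.3 ± 14.3 in WT. In 168FARN the KO and WT ranges of the targeted gene overlapped for *Kmt2c*, at 46.9 to 96.7 against 44.7 to 113 CPM, and also for *Kmt2d*, at 136 to 296 against 104 to 160. RNA levels thus do not check the KO labels. The epithelial marker *Epcam* had no count in any 168FARN library and between 7350 and 43948 in the 67NR libraries. Another epithelial marker, *Krt8*, was present in both lines with overlapping ranges, at 97.5 to 390 CPM in 168FARN and 80.6 to 762 in 67NR.

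Cluster output in WT cells differed between the lines in amount and in make-up. Levels of different genes were compared as RPKM, CPM divided by the annotated exon length in kb. The summed RPKM of the 10 members was 5.62, 6.03 and 13.9 in the 168FARN WT libraries and 118, 131 and 24.0 in those of 67NR. *Mmp13*, which encodes collagenase 3 and cuts fibrillar collagens, made up 57.3 to 87.1% of this sum in 67NR WT cells and 1.25 to 14.6% in 168FARN WT cells. *Mmp3*, stromelysin 1, made up 62.6 and 63.7% in 168FARN WT replicates 1 and 2, and in replicate 3 *Mmp10*, stromelysin 2, made up 73.3%. The order in 67NR WT was *Mmp13* at 76.4 ± 54.6 RPKM (SD, n = 3), *Mmp3* at 11.7 ± 3.42, *Mmp10* at 2.42 ± 0.249 and *Mmp12* at 0.451 ± 0.326. In replicate 3 *Mmp13* lay closer to *Mmp3* than in the other libraries, with an RPKM ratio of 1.78 against 7.59 and 8.19. Neither KO of 67NR kept the WT make-up, as *Mmp13* took 4.07 to 7.79% in *Kmt2c* KO and 10.7 to 15.7% in *Kmt2d* KO, while *Mmp3* took 54.3 to 58.3% and 54.6 to 61.5%. The summed RPKM of 67NR *Kmt2c* KO libraries, 129, 134 and 50.2, overlapped that of WT, so that the sum hid opposite movements of its parts.

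**Figure D1:**
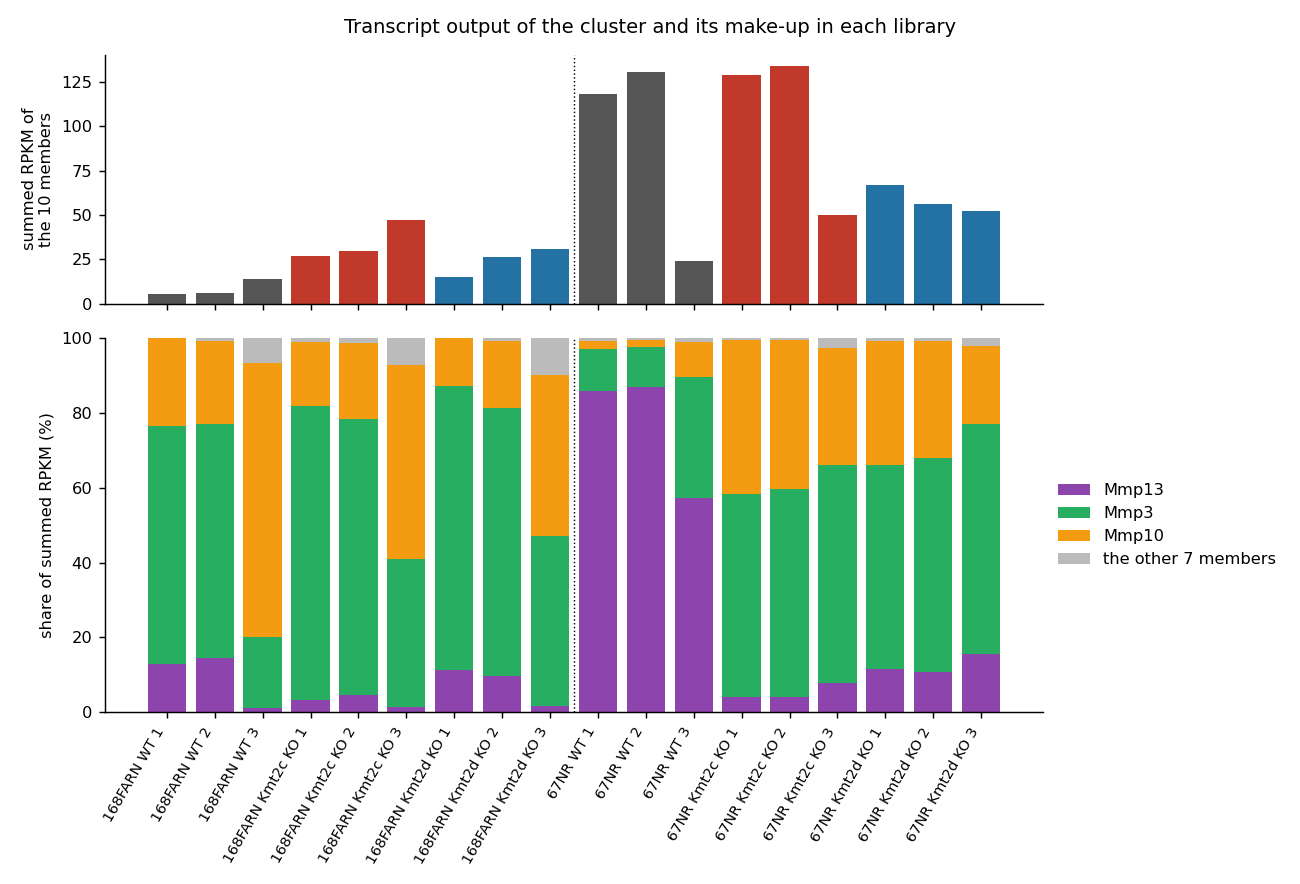
Summed RPKM of the 10 members (upper bars, from 0, grey for WT, red for *Kmt2c* KO, blue for *Kmt2d* KO) and the share of *Mmp13*, *Mmp3*, *Mmp10* and the other 7 members in it (lower stacked bars, %), for each of 18 libraries. *Mmp13* fills most of the 67NR WT bars, 57.3 to 87.1%, and at most 15.7% of any 67NR KO bar.

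In 67NR all 6 members that passed the filter on low counts were called in *Kmt2c* KO against WT, 4 higher and 2 lower. Calls required both an edgeR adjusted p under 0.1 and a log2 fold change beyond 0.6 in either direction, and 17.9% of the 13665 genes tested were called higher and 17.4% lower. In *Kmt2d* KO 3 members were higher and 2 lower, where 13.9% of genes were called higher and 11.6% lower. The filter kept members by their highest group, and *Mmp1a*, *Mmp7*, *Mmp8* and *Mmp27* did not pass it. *Mmp20* and *Mmp1b*, with at most 4 and 10 counts in a 67NR WT library, passed it through their KO libraries. The filter thus favoured their rise, and nothing about the cluster follows from the number of members called higher. The members that fell were the collagenase *Mmp13* and the elastase *Mmp12*, and those that rose were the stromelysins *Mmp3* and *Mmp10*, the enamelysin *Mmp20* and, in *Kmt2c* KO, the collagenase *Mmp1b*. This split by direction describes the members and was not tested.

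*Mmp13* had 23473, 21250 and 1637 counts in the 67NR WT libraries, 1030, 940 and 432 in *Kmt2c* KO and 1091, 836 and 858 in *Kmt2d* KO. After normalization these were 272, 304 and 36.9 CPM in WT, 14.0, 14.9 and 10.5 in *Kmt2c* KO and 20.8, 16.0 and 22.0 in *Kmt2d* KO. All 6 KO libraries lay below all 3 WT libraries, and WT replicate 3 was the nearest to them. The log2 fold change was -3.96 ± 0.66 (SE, edgeR adjusted p = 0.00164) in *Kmt2c* KO and -3.38 ± 0.64 (adjusted p = 0.00531) in *Kmt2d* KO. Without WT replicate 3 the values were -4.46 and -3.88, and over all fits that left out a library they ran from -4.46 to -3.58 and from -3.88 to -2.99, called each time.

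*Mmp12* encodes macrophage elastase, which cuts elastin. It had 391, 330 and 24 counts in 67NR WT, 18, 18 and 2 in *Kmt2c* KO and 34, 40 and 12 in *Kmt2d* KO. In CPM these were 4.53, 4.73 and 0.540, then 0.245, 0.285 and 0.0484, then 0.649, 0.766 and 0.308. The *Kmt2c* KO libraries lay below all WT libraries, whereas the *Kmt2d* KO range overlapped WT at its replicate 3. The log2 fold change of *Mmp12* was -4.03 ± 0.89 (SE, edgeR adjusted p = 0.00727) in *Kmt2c* KO and -2.50 ± 0.82 (adjusted p = 0.0572) in *Kmt2d* KO. In bulk RNA, fewer cells that make a transcript and less of it per cell cannot be told apart. Of the 9 fits that left out a library, 5 no longer made the second call, those without WT replicate 1 or 2 or any *Kmt2d* KO replicate, with adjusted p up to 0.159. The defining macrophage markers *Ptprc* and *Adgre1* had 0 counts in every 67NR WT library and at most 4 in any library of the series. The summed level of the 8 macrophage markers ran from 28.8 to 51.1 CPM in 67NR WT. It ran from 50.7 to 95.3 in *Kmt2c* KO and from 46.2 to 97.4 in *Kmt2d* KO. Most of these sums was *Cd68* and *Cd14*, so they describe those genes and not the list. *Cd68* was at 21.4 to 36.1 CPM in WT, 19.3 to 71.3 in *Kmt2c* KO and 25.5 to 82.2 in *Kmt2d* KO, with overlapping ranges and no call. *Csf1r* was at 0.162 to 3.60 CPM in WT, 0.0634 to 0.411 in *Kmt2c* KO and at most 0.103 in *Kmt2d* KO. Its highest WT value, 160 counts, was that of replicate 3, and its *Kmt2c* KO range overlapped WT.

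*Mmp3* encodes stromelysin 1, which cuts matrix proteins and activates other pro-MMPs. It had 24.1, 25.0 and 13.9 CPM in 67NR WT, 126, 134 and 52.6 in *Kmt2c* KO and 65.7, 57.6 and 58.0 in *Kmt2d* KO. Every KO library lay above every WT library. The log2 fold change was 2.31 ± 0.36 (SE, edgeR adjusted p = 0.00114) in *Kmt2c* KO and 1.52 ± 0.35 (adjusted p = 0.0134) in *Kmt2d* KO.

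*Mmp10*, the close relative that encodes stromelysin 2, had 4.66, 3.97 and 3.87 CPM in 67NR WT, 90.9, 91.7 and 27.1 in *Kmt2c* KO and 38.2, 30.2 and 18.9 in *Kmt2d* KO. The KO libraries lay above all WT libraries by a wider margin than for *Mmp3*, and the lowest KO value was that of replicate 3 in each case. The log2 fold change was 4.07 ± 0.48 (SE, edgeR adjusted p = 2.2e-04) in *Kmt2c* KO and 2.80 ± 0.45 (adjusted p = 0.00237) in *Kmt2d* KO. The RPKM of *Mmp3* was 3.44 to 6.02 times that of *Mmp10* in 67NR WT, 1.32 to 1.86 times in *Kmt2c* KO and 1.65 to 2.94 times in *Kmt2d* KO. The ratio ranges of each KO and WT did not overlap. Both *Mmp3* and *Mmp10* were called in each of the 9 fits that left out a 67NR library.

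*Mmp20* encodes enamelysin, known for its part in tooth enamel. It had 0, 0 and 4 counts in 67NR WT, 48, 32 and 46 in *Kmt2c* KO and 24, 10 and 62 in *Kmt2d* KO, all even. The KO libraries lay above WT, at 0.192 to 1.59 CPM against at most 0.0901. The fitted log2 fold change was 4.91 ± 1.31 (SE, edgeR adjusted p = 0.0178) in *Kmt2c* KO and 4.88 ± 1.31 (adjusted p = 0.0263) in *Kmt2d* KO. Since the WT counts amount to about 2 fragments, the ratio of pooled CPM, 35.5 in *Kmt2c* KO and 33.5 in *Kmt2d* KO, had a 95% exact interval of 9.43 to 299 and of 8.79 to 285, which covers counting error only. Without WT replicate 3, which holds all 4 WT counts, the fitted values were 8.49 and 8.47 and depended on the prior count. *Kmt2d* KO replicate 3 holds the highest count and without it the value was 3.74 (edgeR adjusted p = 0.0657).

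*Mmp1b*, a rodent relative of interstitial collagenase, had 6, 0 and 10 counts in 67NR WT, 36, 16 and 46 in *Kmt2c* KO and 14, 20 and 26 in *Kmt2d* KO. Its KO libraries lay above its WT libraries, by a margin of 0.225 against 0.254 CPM at the nearest. The log2 fold change was 2.72 ± 1.05 (SE, edgeR adjusted p = 0.0744) in *Kmt2c* KO, and 6 of the 9 fits that left out a library no longer made this call, with adjusted p up to 0.214. The libraries whose omission lost it were WT replicates 1 and 2, *Kmt2c* KO replicates 1 and 3, and *Kmt2d* KO replicates 1 and 2. It was also lost in a fit of only the 6 libraries compared (adjusted p = 0.104). In *Kmt2d* KO the value was 2.24 ± 1.05 (adjusted p = 0.167), not called. A block for the replicate number brought it to 2.53 (edgeR adjusted p = 0.0243), and the omission of WT replicate 3 to 3.50 (adjusted p = 0.0567), both called. *Mmp1a*, the member closest to it in coding sequence, had 0, 0 and 0 counts in 67NR WT, 4, 16 and 12 in *Kmt2c* KO and 2, 4 and 4 in *Kmt2d* KO. Against a floor of 3 fragments over the WT group, here 6 counts, the pooled level of *Mmp1a* was 6.01 times the floor in *Kmt2c* KO. In *Kmt2d* KO it was 2.33 times the floor. These ratios leave out the counting error of the KO groups, which held 32 and 10 counts in sum. *Mmp1a* did not pass the filter in the fit of the 9 libraries of 67NR. It passed through its KO libraries when WT replicate 3 was left out, and the fitted fold changes then depended on the prior count.

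*Mmp7*, matrilysin, and *Mmp8*, the neutrophil collagenase, had 0 counts in all 18 libraries. A count of 0 allows up to 3 fragments over a group, which corresponds to between 0.0281 and 0.0467 CPM in the 168FARN groups and between 0.0299 and 0.0418 in those of 67NR. *Mmp27* had 4, 8 and 0 counts in 67NR WT, 9, 0 and 1 in *Kmt2c* KO, 0 in the *Kmt2d* KO libraries, and a single count over the 9 libraries of 168FARN. No difference in *Mmp27* was detectable at this depth.

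**Figure D2:**
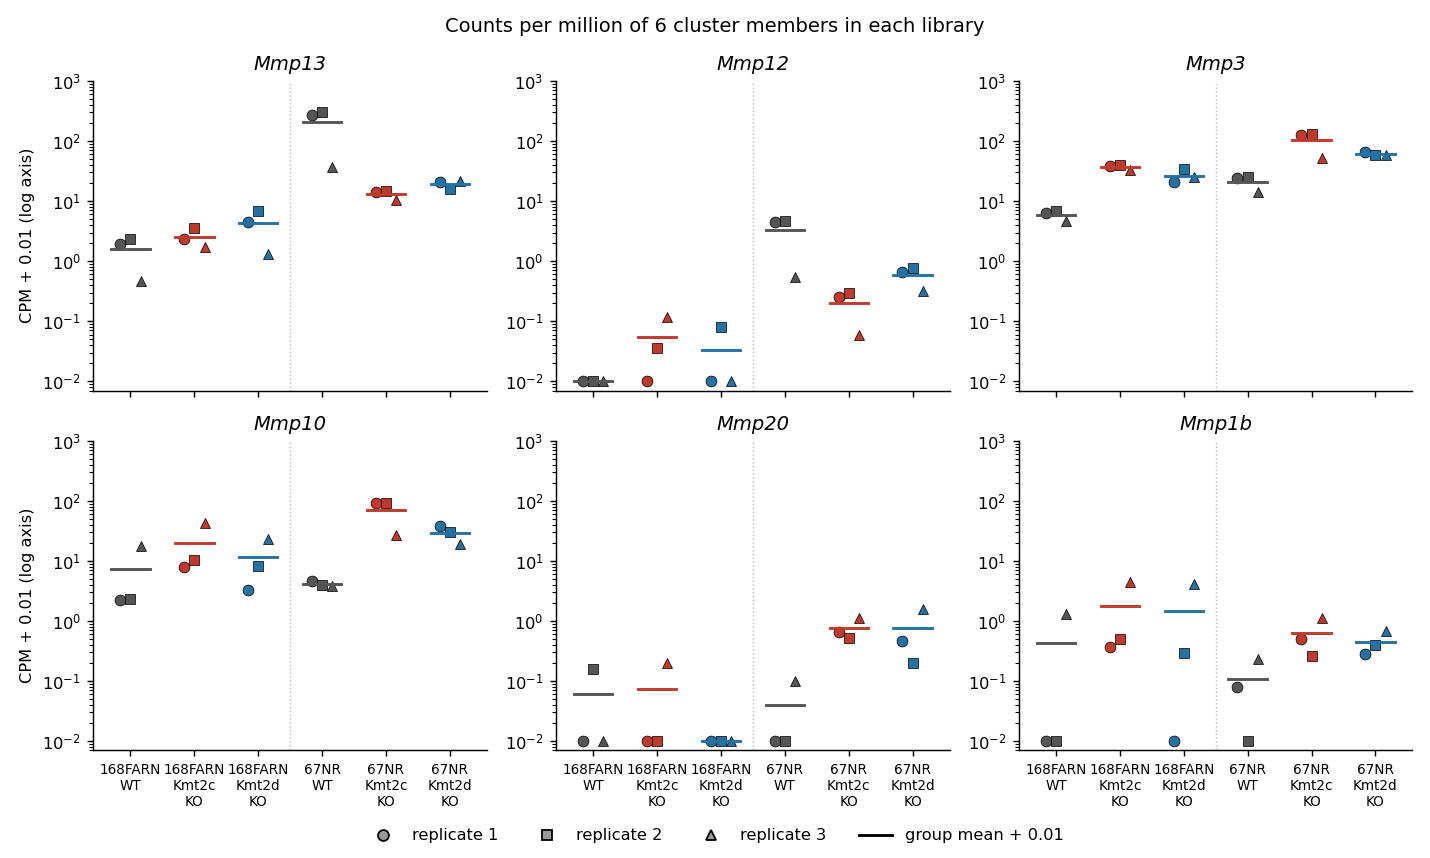
CPM + 0.01 on a log axis for *Mmp13*, *Mmp12*, *Mmp3*, *Mmp10*, *Mmp20* and *Mmp1b* in the 6 groups; each symbol is a library, its shape gives the replicate and lines give group means + 0.01. In 67NR, *Mmp13* and *Mmp12* are highest in WT with replicate 3 well below the others (36.9 CPM for *Mmp13*), and the other 4 genes are lowest in WT.

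Along the chromosome, the members that fell in 67NR were the first 2 in order, and the 4 that rose began with *Mmp1b*, whose annotated end overlaps that of *Mmp12*. Of the 12 annotated genes with a row that lie within 1 Mb of the cluster or inside it, 7 could be tested in 67NR. None was called higher, and only 9230110C19Rik, 322 kb beyond the *Mmp7* end, was called lower, with log2 fold changes of -2.86 ± 0.53 (SE, edgeR adjusted p = 0.00299) in *Kmt2c* KO and -1.28 ± 0.50 (adjusted p = 0.0998) in *Kmt2d* KO. Of the 13665 genes tested, 17.9% were called higher and 17.4% lower in *Kmt2c* KO, and 13.9% and 11.6% in *Kmt2d* KO. Nothing particular to these 7 genes follows from their counts. The nearest tested neighbours were not called. *Dcun1d5*, 65.5 kb before *Mmp13*, had log2 fold changes of -0.52 and -0.20, and *Tmem123*, 64.5 kb beyond *Mmp7*, had 0.16 and 0.41. *Yap1*, 232 kb beyond *Mmp7*, had -0.59 ± 0.16 (adjusted p = 0.0174) and -0.53 ± 0.16 (adjusted p = 0.0386), short of the fold threshold. The 7 tested flanking genes had medians of -0.59 and -0.34, beside -0.02 over all genes in each KO. The list of named neighbours held 9 tested genes and added *Casp4*, an inflammatory caspase, at -0.80 ± 0.31 (adjusted p = 0.0735) in *Kmt2c* KO, the only call of that list in either KO.

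**Figure D3:**
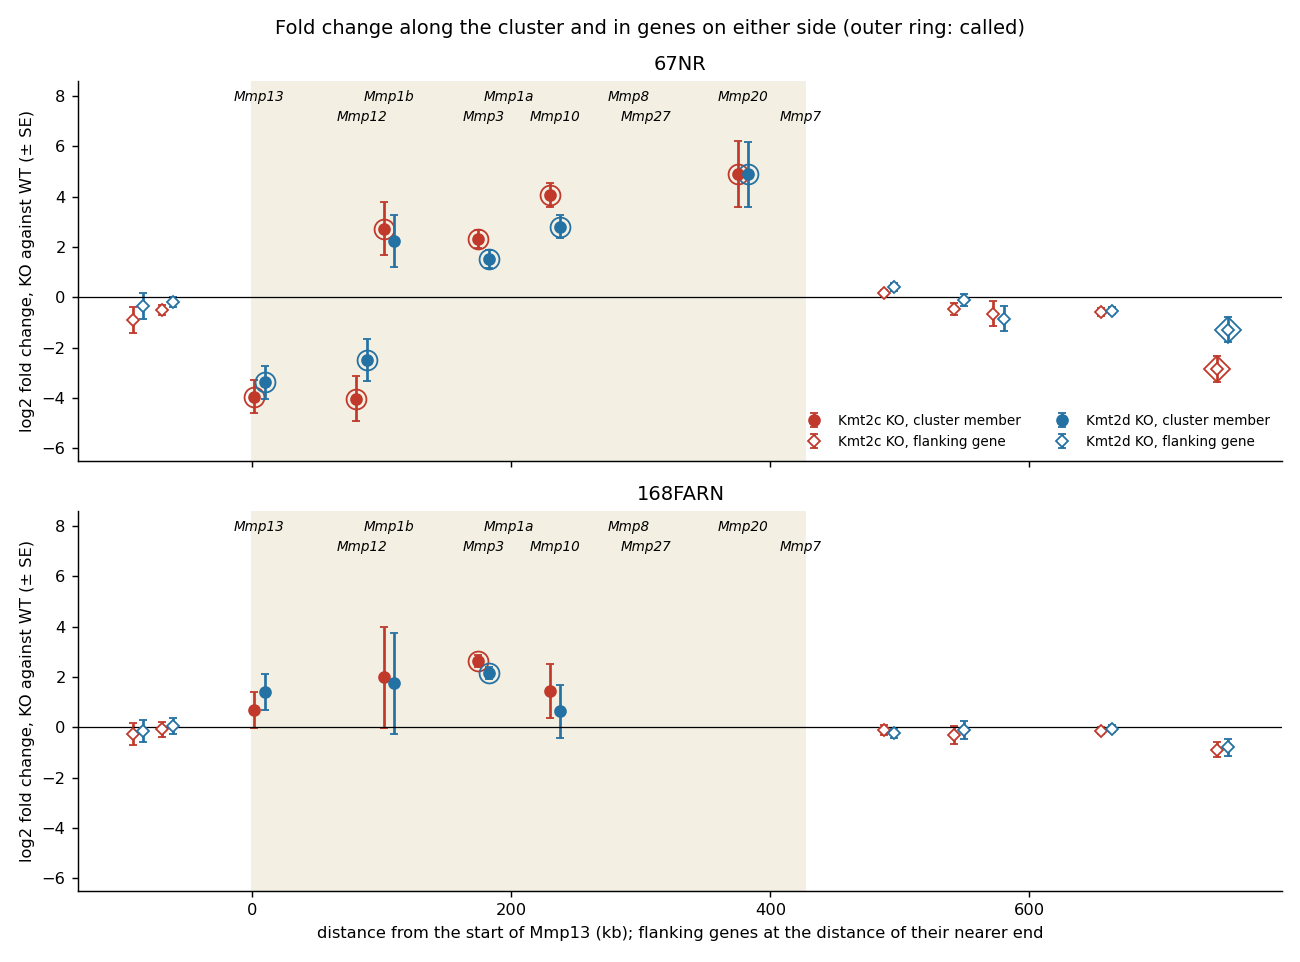
Log2 fold change (± SE) of KO against WT, against distance in kb from the start of *Mmp13*, for members (filled circles, shaded span) and flanking genes (open diamonds) in 67NR and 168FARN; an outer ring marks a call. In 67NR *Mmp13* and *Mmp12* lie below 0 and *Mmp1b*, *Mmp3*, *Mmp10* and *Mmp20* above it, and flanking genes lie between -2.86 and 0.41.

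In 168FARN, *Mmp3* was the only member called in either KO. Of 4 members tested, *Mmp3*, *Mmp10*, *Mmp13* and *Mmp1b*, 1 was called higher and 0 lower in each KO. Calls were rare among all 12253 genes, at 0.196% higher and 0.163% lower in *Kmt2c* KO and 0.147% and 0.139% in *Kmt2d* KO. *Mmp3* had 6.43, 6.79 and 4.67 CPM in WT, 38.1, 39.5 and 33.5 in *Kmt2c* KO and 20.4, 34.0 and 25.6 in *Kmt2d* KO. Every KO library lay above every WT library, and replicate 3 of each genotype was close to its group. The log2 fold change was 2.63 ± 0.25 (SE, edgeR adjusted p = 0.0121) in *Kmt2c* KO, with rank 3 by p-value among all genes. It was 2.16 ± 0.24 (adjusted p = 0.0323) in *Kmt2d* KO, with rank 6. The first call was lost without WT replicate 1 (adjusted p = 0.122). The second was lost when WT replicate 1, WT replicate 2 or the second *Kmt2d* KO library was left out (adjusted p up to 0.171) and in a fit of only the 6 libraries compared (adjusted p = 0.156). The fold changes of the fits that left out a library stayed between 2.50 and 2.74 for *Kmt2c* and between 1.95 and 2.32 for *Kmt2d*.

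The other tested members of 168FARN differed strongly between replicates of a genotype. *Mmp10* had 2.25, 2.29 and 17.5 CPM in WT, 7.97, 10.4 and 42.1 in *Kmt2c* KO and 3.25, 8.13 and 23.0 in *Kmt2d* KO. Replicate 3 was the highest of each genotype, 4.05 to 7.68 times the mean of replicates 1 and 2, and within each replicate number both KO values were above WT. *Mmp13* went the other way, with replicate 3 at 0.216 to 0.586 times the mean of the others, and had 1.96, 2.35 and 0.465 CPM in WT, 2.34, 3.58 and 1.73 in *Kmt2c* KO and 4.55, 6.85 and 1.30 in *Kmt2d* KO. Within each replicate number both KO values of *Mmp13* were also above WT, while the ranges of the groups overlapped. *Mmp1b* had 0, 0 and 55 counts in WT, 11, 19 and 164 in *Kmt2c* KO and 0, 4 and 110 in *Kmt2d* KO. The log2 fold changes in *Kmt2c* KO were 1.45 ± 1.07 for *Mmp10*, 0.69 ± 0.72 for *Mmp13* and 1.98 ± 2.01 for *Mmp1b*, and those in *Kmt2d* KO were 0.64 ± 1.06, 1.41 ± 0.73 and 1.74 ± 2.01, none of them called (edgeR adjusted p = 1.00 each).

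A block for the replicate number, which takes out what replicate 3 shared across genotypes, left 3 members called higher in each KO of 168FARN. In *Kmt2c* KO these were *Mmp3* at 2.65 (edgeR adjusted p = 3.4e-06), *Mmp10* at 1.68 (adjusted p = 0.00120) and *Mmp1b* at 2.58 (adjusted p = 0.0307). In *Kmt2d* KO they were *Mmp3* at 2.16 (adjusted p = 1.1e-05), *Mmp10* at 0.85 (adjusted p = 0.0609) and *Mmp13* at 1.39 (adjusted p = 0.0217). The block raised the calls among all 12253 genes as well, to 886 in *Kmt2c* KO and 723 in *Kmt2d* KO from 44 and 35. In neither KO of 168FARN was *Mmp13* lower under the block.

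The 168FARN rows of the remaining members held few counts and were not tested. *Mmp1a* had 0, 0 and 3 counts in WT, 0, 0 and 17 in *Kmt2c* KO and 0, 0 and 15 in *Kmt2d* KO, all in replicate 3, where *Mmp1b* was also highest. *Mmp12* had 0, 0 and 0 in WT, 0, 1 and 4 in *Kmt2c* KO and 0, 1 and 0 in *Kmt2d* KO. *Mmp20* had 0, 5 and 0 in WT, 0, 0 and 7 in *Kmt2c* KO and none in *Kmt2d* KO.

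The 2 KOs were not separated by any member in edgeR's fit without a block. Of all genes, 0.131% were called higher and 0.122% lower in *Kmt2c* KO against *Kmt2d* KO of 168FARN, and 0.132% and 1.28% in 67NR. Over all members tested, 0 were called at an adjusted p under 0.1 in either line, and those with an unadjusted p under 0.05 were *Mmp3* and *Mmp10* in 67NR. In 67NR the differences were 1.27 ± 0.43 (SE) for *Mmp10*, 0.78 ± 0.34 for *Mmp3*, -1.53 ± 0.85 for *Mmp12* and -0.58 ± 0.59 for *Mmp13*. By DESeq2 *Mmp10* alone was called in 67NR and 0 members in 168FARN. Under the replicate block, *Mmp10* at 1.18 (edgeR adjusted p = 0.0277), *Mmp3* at 0.67 (adjusted p = 0.0920) and *Mmp12* at -1.71 (adjusted p = 0.0628) were called, so that the *Kmt2c* KO was then the further from WT in each of them. In 168FARN *Mmp3* differed by 0.47 ± 0.23 and *Mmp10* was called under the block, at 0.83 (adjusted p = 0.0565).

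The lines were compared over 13882 genes of all 18 libraries. In WT cells *Mmp13*, *Mmp12* and *Mmp3* were called higher in 67NR and 0 of the 7 members tested lower, where 22.3% of genes were called higher and 16.9% lower. *Mmp13* was higher by 7.01 ± 0.86 on the log2 scale (SE, edgeR adjusted p = 9.4e-06) and *Mmp3* by 1.81 ± 0.32 (adjusted p = 3.2e-04), with no overlap of the libraries. *Mmp12* was at 3.71 CPM pooled over 67NR WT and had no count in 168FARN WT. Its pooled 67NR level was 132 times a floor of 3 counts over the 168FARN group. *Mmp10* differed by -0.82 ± 0.84 (adjusted p = 0.486). With replicates 1 and 2 only, a setting chosen after seeing the data, it was higher in 67NR by 0.89 (adjusted p = 0.00681). Line, collection and type of control cannot be told apart in this comparison.

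The effect of each KO was then compared between lines. For the *Kmt2c* KO, *Mmp13* and *Mmp12* were called lower in 67NR than in 168FARN and 0 of 7 members higher, where 8.49% of genes were called higher and 7.55% lower. For the *Kmt2d* KO only *Mmp13* was called, as lower, where 6.68% were called higher and 3.92% lower. The difference for *Mmp13* was -4.74 ± 1.00 (SE, edgeR adjusted p = 0.00497) for *Kmt2c* and -4.84 ± 1.00 (adjusted p = 0.00642) for *Kmt2d*. It was called in each of the 18 fits that left out a library. For *Mmp12* in the *Kmt2c* test the fitted difference of -8.27 (adjusted p = 0.0276) rests on 5 counts in 168FARN *Kmt2c* KO and none in its WT. It depends on the prior count, and the call was lost without *Kmt2c* KO replicate 3 of that line (adjusted p = 0.205). With no WT count there, a fall of *Mmp12* in 168FARN could not have been seen, so the test cannot tell whether the lines differ. *Mmp3* showed no called difference, at -0.41 ± 0.44 and -0.70 ± 0.44 (adjusted p = 0.671 and 0.453). *Mmp10* differed by 2.53 ± 1.19 (adjusted p = 0.211) and 2.09 ± 1.19 (adjusted p = 0.387), and under the block by 2.15 (adjusted p = 8.4e-04) and 1.82 (adjusted p = 0.00442), both called higher in 67NR. *Mmp20* was also called higher under the block, at 4.78 (adjusted p = 0.0959) and 8.81 (adjusted p = 0.0474), against 4.37 and 8.97 without it. These fitted differences depend on the prior count, since *Mmp20* had 5 counts in 168FARN WT, all in replicate 2, none in its *Kmt2d* KO and 4 in 67NR WT.

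**Figure D4:**
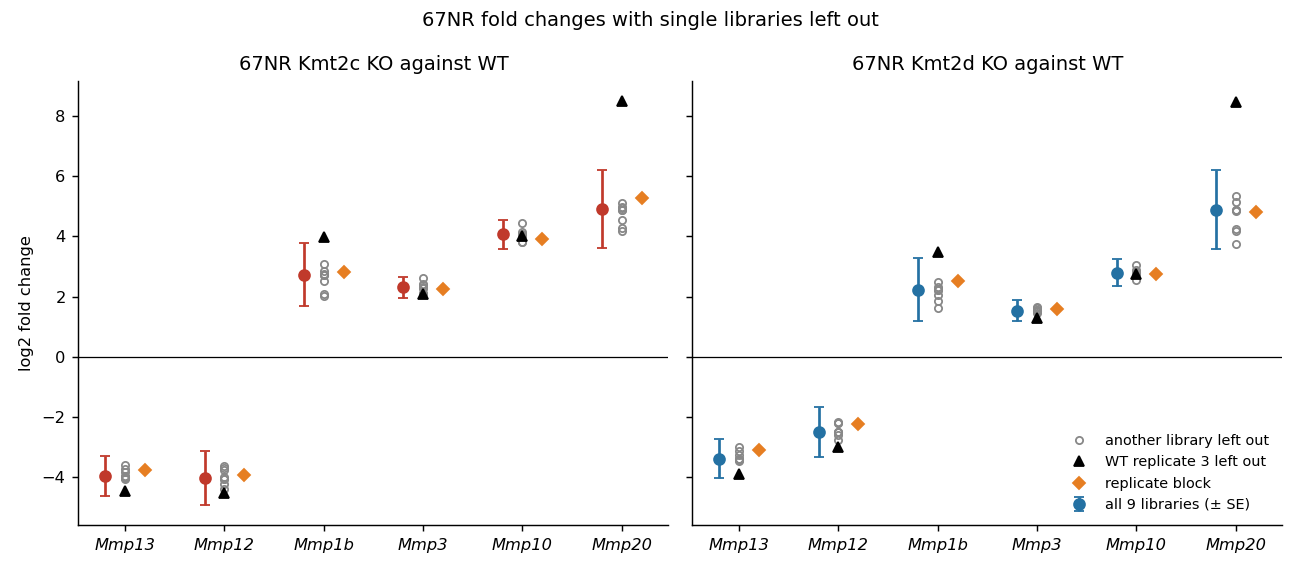
Log2 fold change of 6 members in 67NR *Kmt2c* KO (left) and *Kmt2d* KO (right) against WT: all 9 libraries with SE (coloured circles), each other library left out (open circles), WT replicate 3 left out (black triangles) and the replicate block (orange diamonds). No setting shown moves a member across 0, and without WT replicate 3 *Mmp20* goes from 4.91 to 8.49 and from 4.88 to 8.47.

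Genes that act on MMPs or on their promoters were read from lists, whose counts stand beside 17.9% of all genes called higher and 17.4% lower in 67NR *Kmt2c* KO, and 13.9% and 11.6% in *Kmt2d* KO. Nothing particular to a list follows from its count. In 168FARN 0 genes of these 4 lists were called in either KO. Of the inhibitors, 3 of 5 were tested in 67NR and only *Timp1*, the inhibitor of many secreted MMPs, was called, higher in *Kmt2c* KO by 1.07 ± 0.43 (SE, edgeR adjusted p = 0.0845). It had 1.00 ± 0.43 (adjusted p = 0.133) in *Kmt2d* KO. *Timp2* had -0.02 and -0.19, and *Reck*, a membrane-anchored inhibitor, had 0.56 and 0.42, none called. Of 13 MMP genes elsewhere in the genome 9 were tested, of which 3 were higher and 2 lower in *Kmt2c* KO (median 0.68) and 1 higher and 2 lower in *Kmt2d* KO (median -0.06). *Mmp15*, a membrane-type MMP, went from 18.9 to 35.0 CPM in WT to at most 0.764 in the KO libraries, with log2 fold changes of -5.74 and -5.81. *Mmp11*, stromelysin 3, had -1.69 and -1.45, both called, and *Mmp19* rose by 1.62 (adjusted p = 0.0459) in *Kmt2c* KO, with 1.26 (adjusted p = 0.131) in *Kmt2d* KO.

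Of 10 activators of pro-MMPs, 7 were tested in 67NR, with 2 higher and 4 lower in each KO. Their medians were -1.78 in *Kmt2c* KO and -1.09 in *Kmt2d* KO. *Plaur*, the urokinase receptor, rose by 1.21 and 0.75, while the membrane serine proteases *St14* (-2.25 and -1.24) and *Prss8* (-2.09 and -1.12) fell. All 14 AP-1, ETS and Runx factors were tested, with 5 higher and 3 lower in *Kmt2c* KO (median -0.10) and 3 higher and 2 lower in *Kmt2d* KO (median 0.09). *Fosl1* had 35.3 to 86.2 CPM in 67NR WT, 326 to 388 in *Kmt2c* KO and 266 to 300 in *Kmt2d* KO. Its log2 fold changes were 2.73 ± 0.32 (SE, edgeR adjusted p = 2.1e-04) and 2.38 ± 0.31 (adjusted p = 7.7e-04). *Jun* rose by 2.66 and 2.15, and *Jund* fell (-1.67 and -1.08). In 168FARN WT *Fosl1* was at 330 to 375 CPM, and *Jun* at 299 to 492.

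Cell type markers also changed in 67NR. Among all genes tested, 17.9% were called higher and 17.4% lower in *Kmt2c* KO, and 13.9% and 11.6% in *Kmt2d* KO. The marker lists are short and their counts were not tested. All 6 tested epithelial markers were lower in *Kmt2c* KO and 4 of 6 in *Kmt2d* KO, and 5 of 7 tested mesenchymal markers were higher in each. The summed level of the epithelial list ran from 2046 to 3357 CPM in WT, 449 to 784 in *Kmt2c* KO and 763 to 1561 in *Kmt2d* KO, with *Krt5* at 0 in all. The mesenchymal sum ran from 270 to 1290, 2901 to 4523 and 2168 to 4214 CPM, with *Thy1* at 0 in WT. Most of it was *Vim*, at 256 to 1269, 2679 to 4389 and 2020 to 4114.5 CPM. *Cdh1* (-2.80 and -1.36), *Epcam* (-1.89 and -1.37) and *Krt19* (-1.78 and -1.20) fell, while *Pdgfra* rose by 3.84 and 3.28, *Pdgfrb* by 3.01 and 2.42 and *Dcn* by 4.10 and 3.90. The mesenchymal markers *Col1a1* and *Col1a2* did not rise and were not called. Mean *Col1a1* was 2.30 CPM for WT cells, against 1.38 after loss of *Kmt2c* and 2.16 after loss of *Kmt2d*. Mean *Col1a2* was 0.663 CPM, against 0.210 and 0.367 in the same order. The KO and WT ranges of both genes overlapped. The macrophage list had 3 of 5 tested markers higher in *Kmt2c* KO (*Lyz2*, *Cd14* and *Mrc1*), and the same 3 higher and *Csf1r* lower in *Kmt2d* KO. The WT mean of *Csf1r*, 1.37 ± 1.94 CPM (SD, n = 3), rested on replicate 3, and its call was not examined without that library. The neutrophil list had 1 of 3 lower in each KO, *Ltf*, while *S100a8* (0.68 and -0.08) and *Cxcr2* (1.71 and 1.72) were not called. The neutrophil sum was 9.19 to 78.5 CPM in WT and at most 1.33 in the KO libraries. *Ltf* alone was at 8.67 to 78.3 CPM in WT, so the sum describes that gene and not the list. *S100a9*, *Mpo*, *Elane* and *Ngp* were at 0 in WT. The endothelial list had 1 of 2 higher in each KO, *Cdh5* at 2.60 and 1.75, and *Pecam1* (-0.46 and -0.26) was not called, in sums of at most 2.24 CPM. In 168FARN *Cdh5* was higher in *Kmt2c* KO (2.61, adjusted p = 0.0537) and no other marker was called. The part of these markers in the member results was not tested.

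Genes with the most similar profiles were found by correlation of log2 CPM over 18 libraries, each gene centred on its line mean. These libraries share genotype, replicate number and depth, so the coefficients describe likeness and carry no test. In 168FARN *Mmp12* had at most 4 counts and *Mmp20* at most 7 in a library, and *Mmp1a* had counts in replicate 3 only. Coefficients of these members therefore hold values near the floor in that line. *Mmp13* was closest to *Dio2* (Pearson r = 0.949) and *Bcl2* (0.931), and *Mmp12* to *Nutf2* (0.945) and *Vkorc1l1* (0.930). *Mmp3* was closest to *St3gal1* (0.921) and *P2rx7* (0.920), and *Mmp10* to *Ccbe1* (0.951) and *Nup98* (0.949). *Mmp1b* was closest to *Emd* (0.945) and *Exosc2* (0.923), *Mmp1a* to *Ctnnal1* (0.923) and *Pcolce2* (0.915), and *Mmp20* to *Cacng8* (0.903) and *Gm29684* (0.888). Within the cluster the highest values were *Mmp13* with *Mmp12* (0.810), *Mmp1b* with *Mmp1a* (0.794) and *Mmp1b* with *Mmp10* (0.772), and the lowest was *Mmp13* with *Mmp20* (-0.69).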

How the data were processed

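RNA-seq libraries were prepared from polyA RNA with the KAPA mRNA HyperPrep kit, and per the study's methods reads were aligned to mm9 with STAR in the VIPER pipeline. The authors deposited raw counts of reads per gene symbol, without normalization, in a table for each line. The strand setting and the STAR version are not given in the sources used here. Column names tied every column to its sample and 0 columns were unused.

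The analysis used R 4.3.3 with edgeR 4.0.16 and DESeq2 1.42.0, and figures and tables were made with Python 3.11.15, pandas 2.3.3 and matplotlib 3.10.9. The main test was edgeR's quasi-likelihood test (robust, TMM, filterByExpr by group), with genotype as the only factor in the 9 libraries of a line, or the 6 groups of all 18 libraries for comparisons between lines. Benjamini-Hochberg adjustment ran over all genes tested. Calls required an adjusted p under 0.1 and a log2 fold change beyond 0.6 in either direction. Each SE was taken as the size of the log2 fold change over the square root of its F statistic. The script was tested on simulated counts. Reported CPM use effective library sizes. Positions and exon lengths came from GENCODE vM1 on mm9, promoters from RefSeq (GRCm38.p6), and coding sequences were aligned with Biopython 1.88.

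Deviations of same-numbered libraries from their group means had correlations between 0.650 and 0.897 (168FARN) and between 0.351 and 0.717 (67NR). All were over 0.1, the threshold set for pairing by replicate number. Libraries numbered 1 and 2 also correlated with each other, between 0.623 and 0.728 and between 0.284 and 0.523, and both went against replicate 3. These values set replicate 3 apart from replicates 1 and 2. They do not show that numbers 1 and 2 pair the samples.

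The members and lists were chosen with earlier results of these data known. All 10 members are named. Of each list the 3 genes with the smallest p in 67NR *Kmt2c* KO against WT are named (all of a list of up to 5), genes that bear on a cell type are added, and 2 nearest genes are given for each member tested on all libraries. Other genes named were chosen after their values were seen. Alternatives were another scaling, test, filter, threshold, block or library set, the omission of *Rn45s* and the sum of *Mmp1a* and *Mmp1b*. Halved 67NR counts and replicates 1 and 2 only were added after seeing the data. Intervals and floors cover counting error only.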

Additional observations from a re-analysis of the deposited data

Results flagged for a closer look

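The following 3 results were set apart because the effect of the same KO differed between the lines by a test of that difference over all 13882 genes. The *Kmt2c* KO effect on *Mmp13* was lower in 67NR than in 168FARN by a log2 difference of -4.74 (edgeR adjusted p = 0.00497). The *Kmt2d* KO effect on *Mmp13* was likewise lower in 67NR, by -4.84 (adjusted p = 0.00642). All 6 KO libraries of 67NR were below all of its WT libraries for *Mmp13*, while in 168FARN the KO and WT libraries overlapped. The *Kmt2c* KO effect on *Mmp12* had a fitted difference of -8.27 (adjusted p = 0.0276), which depends on the prior count because 168FARN WT cells had no *Mmp12* count. A fall of *Mmp12* in 168FARN could therefore not have been seen, and this test cannot tell whether the lines differ. The call was lost without 168FARN *Kmt2c* KO replicate 3 (edgeR adjusted p = 0.205).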

How the results depend on the processing

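Of 1201 values of members under alternatives, 1118 kept their direction and side of the threshold, 22 lost a call, 36 gained one and 25 changed sign, and the cause of these changes was not tested. The sign changes fell on values that were not called with all libraries. The replicate block raised the number of members called to 3 in each 168FARN KO against WT, from 1, to 1 between the KOs of 168FARN and to 3 between those of 67NR, from 0, and to 4 and 3 in the *Kmt2c* and *Kmt2d* tests between lines, from 2 and 1. It also added *Mmp1b* in 67NR *Kmt2d* KO and changed no other call. Among all genes it raised the calls in the tests between lines to 4805 for *Kmt2c* and 3939 for *Kmt2d* from 2226 and 1471, and between the KOs to 653 in 168FARN and 996 in 67NR from 31 and 193. No block could be fitted to the WT lines, since each block lies within a line. Replicates 1 and 2 only, chosen after seeing the data, gave 3 members in each 168FARN KO, 1 and 3 between KOs, 4 in each test between lines, and 5 in WT cells, from 3. Only the 6 libraries compared gave 0 in 168FARN *Kmt2d* KO and lost *Mmp1b* in 67NR *Kmt2c* KO. An adjusted p under 0.05 lost that call of *Mmp1b* and that of *Mmp12* in 67NR *Kmt2d* KO. DESeq2 gave 1 between the 67NR KOs.

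Values that changed sign were those of *Mmp1b* in the *Kmt2c* test between lines (-0.21 with the block, -4.25 with replicates 1 and 2), in the *Kmt2d* test (-2.52) and in WT cells (3.94), and of *Mmp10* in WT cells (0.89). When each library was left out in turn, members called ran from 0 to 1 in each 168FARN KO, 0 to 0 between them, 5 to 7 in 67NR *Kmt2c* KO, 4 to 7 in *Kmt2d* KO, 0 to 1 between these, 2 to 4 and 1 to 2 in the tests between lines, and 3 to 3 in WT cells. In 168FARN *Kmt2c* KO *Mmp1b* ran from -0.045 to 8.70, in *Kmt2d* KO from -1.82 to 8.44, and between KOs from -1.78 to 3.81. *Mmp10* ran from -0.38 to 2.34 in 168FARN *Kmt2d* KO and from -0.32 to 1.84 between KOs. Between the 67NR KOs *Mmp1b* ran from -0.23 to 0.91 and *Mmp20* from -0.45 to 1.21. In the *Kmt2c* test between lines *Mmp1b* ran from -6.55 to 2.71 and *Mmp3* from -0.64 to 0.017, and in the *Kmt2d* test *Mmp1b* from -6.78 to 4.02 and *Mmp1a* from -1.46 to 8.16. In WT cells *Mmp20* ran from -4.22 to 3.25, *Mmp1b* from -3.49 to 5.04 and *Mmp10* from -1.27 to 0.80. Depth limits *Mmp1a*, *Mmp1b*, *Mmp20* and *Mmp27*, with few fragments per library.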
